A study of Mus musculus with 15 samples.

Results

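Primary mouse hepatocytes were compared with MLC, the cells obtained when such hepatocytes were moved into the medium of mesenchymal stromal cells (MSC) with human TGF-β1. The comparison took every array labelled MLC (3 arrays) and every array labelled Hepatocyte (3 arrays), 6 of the 15 mouse expression arrays in the series. It covered all 18193 genes that had a probe set with a single symbol, and where a gene had several, the probe set brightest on average over the 15 arrays stood for it. Per the labels, hepatocytes were held in Hep-maintenance medium and DMEM/F12 with 10% FBS. MLC came from hepatocytes kept in low-glucose DMEM with 10% FBS, with hTGF-β1 at 10 ng/ml to day 7, 5 ng/ml from day 7 to day 14 and 1 ng/ml from day 14 to day 28, followed by the same medium without it. The remaining groups, with 3 arrays each, were MSC in that medium, HD28 and dHD28. HD28 were MSC treated for 7 days with nicotinamide, bFGF (10 ng/ml) and HGF (20 ng/ml), and after that with dexamethasone (1 µmol/L), oncostatin M (20 ng/ml) and ITS+ premix. dHD28 were HD28 cells put back into MSC medium. The labels used here name no strain, sex, age or number of animals, and no marker that would trace MLC back to a hepatocyte. They do not say whether the 3 arrays of a group came from separate animals or cultures, so p-values measure the spread between these samples, which may be technical.

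Hepatocytes are epithelial cells that secrete most plasma proteins and carry the enzymes of drug, bile acid, nitrogen and sugar metabolism under a network of liver transcription factors that includes HNF4α and C/EBPα. TGF-β signals through a pair of kinase receptors to SMAD proteins, and in liver it is best known for making stellate cells into contractile, collagen-producing myofibroblasts. In epithelial cells it can start epithelial-mesenchymal transition (EMT), in which cadherin and keratin genes are shut off and mesenchymal genes are turned on by factors of the Snail, Twist and Zeb families. MSC are fibroblast-like, dividing cells of stromal tissue that are usually recognised by a panel of surface proteins.

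Array values were log2 values after robust multi-array averaging (RMA), deposited by the authors. Over the 18193 genes, the Hepatocyte arrays correlated with one another at r = 0.960 to 0.983 and the MLC arrays at 0.979 to 0.987. Each MLC array had its highest correlation with an array of another group, at 0.991 with MSC replicate 2 for MLC replicate 1, 0.994 with dHD28 replicate 2 for MLC replicate 2, and 0.996 with MSC replicate 3 for MLC replicate 3. Against the Hepatocyte arrays the MLC arrays stood at r = 0.701 to 0.775. Poly-A spike-in controls were bright on Hepatocyte replicate 1 and on MLC replicates 1 and 2 and dim on the other 3 arrays, a split that crossed the groups. The 3′ over 5′ actin signal, a sign of RNA integrity, was 0.665, 1.24 and 1.23 log2 units in the Hepatocyte arrays and 0.173, 0.108 and 0.389 in the MLC arrays, and its part in the results was not tested. Hepatocyte replicate 1 had the lowest mean of its group over the markers of Kupffer cells, endothelial cells and quiescent stellate cells.

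MLC differed from hepatocytes in 5560 of 18193 genes (30.6%), of which 3356 (18.4%) were higher and 2204 (12.1%) lower in MLC. Counts of members of gene lists are to be read beside these shares. A gene counted as changed at a Benjamini-Hochberg adjusted p under 0.05 in limma, over all genes, with a difference of at least 2-fold. Falls were the larger changes: 267 genes fell over 64-fold and 48 rose over 64-fold. Arrays of both groups did not overlap for 5538 of the 5560 genes, and for 10379 of all genes tested (57.0%). The median difference over all genes was -0.06 log2 units. Centring the arrays on 21 housekeeping genes moved that median by -0.56 and turned the split to 2060 higher and 4616 lower, so the balance between rises and falls rested on the scaling. In 545 of the changed genes the mean of the lower group was below 3.66 (Hepatocyte) or 3.50 (MLC), the level that 1 in 4 of all probe sets on those arrays did not reach. Such genes are called dim here, and their fold sizes are approximate, since no detection call was used. Not every dim gene is marked where it is described. Cdh11, Fgf7 and Hoxc10 were also dim in hepatocytes, and Krt18, Arg1, Cyp2c37, Cyp4a14 and Lrat were dim in MLC.

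**Figure D1:**
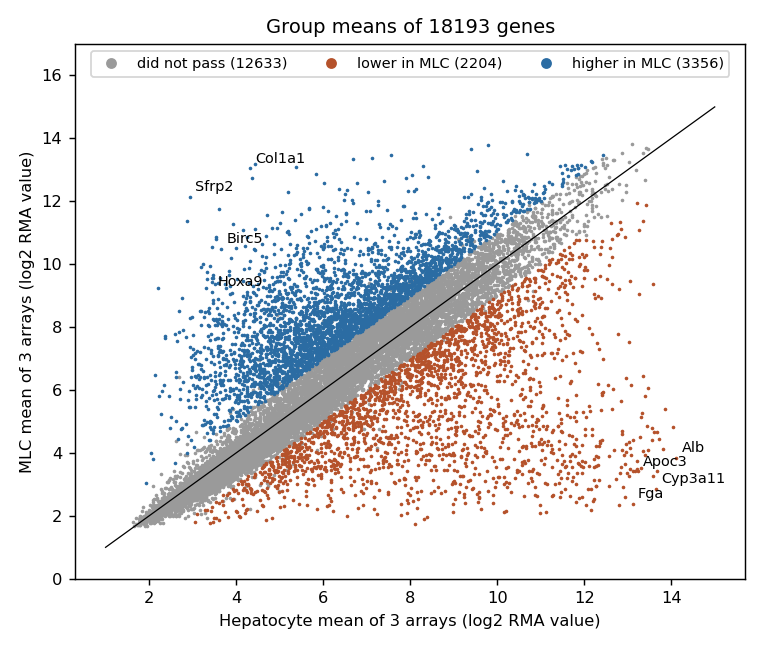
Each point is a gene, with the mean of the 3 Hepatocyte arrays on the x axis and the mean of the 3 MLC arrays on the y axis, both as log2 RMA values; colours mark the 3356 genes higher and the 2204 lower in MLC, and named genes are labelled. Genes such as Alb and Cyp3a11 run along the bottom right at low values in MLC, and Col1a1 and Sfrp2 stand at the top left; the black line marks equal means.

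Genes of hepatocyte function were low in MLC almost without exception. Of 257 measured genes on 9 lists of hepatocyte function (plasma proteins, lipoproteins, complement and coagulation, cytochrome P450, conjugation, bile acids, nitrogen, sugar and fatty acid oxidation), 246 fell, 2 rose and 9 did not pass, and 206 fell at least 8-fold. Their median difference was -6.45 log2 units beside -0.06 over all genes. In bulk samples fewer cells of a type and less RNA per cell cannot be told apart.

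All 28 plasma protein genes fell, with a median of -7.86. Alb, which encodes albumin, read 14.11, 14.10 and 14.15 in the Hepatocyte arrays and 3.96, 3.64 and 3.95 in the MLC arrays. The hepatocyte values sat at the top of the scale and the MLC values near the mean of MSC (3.90), more than 9 units apart. The difference was -10.27 log2 units (SE 0.16, limma adjusted p = 3.5e-08), a size limited by the top of the scale. Fga, the fibrinogen alpha chain, ran from 12.74 to 13.60 in hepatocytes and read 2.20, 2.68 and 2.26 in MLC, a fall of -10.74 (SE 0.26, adjusted p = 9.4e-08) to a dim level. Its partner Fgb changed by -9.58 (SE 0.20), and Ttr, the thyroid hormone carrier transthyretin, by -7.40 (SE 0.16). The MLC arrays were uneven for Hp, Kng1 and Cp, which were chosen after their values were seen. Hp, the haemoglobin-binding haptoglobin, read 4.51 and 5.02 in MLC replicates 1 and 2 and 8.94 in replicate 3, against 12.85 to 13.29 in hepatocytes. MLC replicate 3 was also the highest for Kng1, the kininogen precursor (6.38 against 3.59 and 3.35), and for Cp, the copper carrier ceruloplasmin (8.64 against 6.89 and 5.43). All 3 genes passed the test, with differences of -6.91, -7.37 and -5.45. Of the 28 plasma protein genes, 27 had an MLC mean within 0.5 log2 units of the MSC mean. In none was the MLC mean above that of MSC by at least 1 unit.

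Most genes of lipid transport and of the complement and clotting cascades were low in MLC as well. Of 19 apolipoprotein and lipoprotein assembly genes, 18 fell (median -7.33). Apoa1, the main protein of high-density lipoprotein, changed by -8.47 (SE 0.18, adjusted p = 6e-08), and Fabp1, the fatty acid carrier of the hepatocyte cytosol, by -10.33 (SE 0.20, adjusted p = 4.3e-08). The exception was Scarb1, the receptor that takes up high-density lipoprotein, at 10.24, 9.63 and 9.59 in hepatocytes and 9.66, 10.22 and 9.48 in MLC. These ranges overlapped, and the difference was -0.03 (SE 0.26, adjusted p = 0.94). Of 28 complement and coagulation genes, 27 fell (median -7.46), among them Hc (complement C5) by -8.33 and F9 (clotting factor IX) by -8.62. Masp1, a serine protease of the lectin pathway, was the one that rose, by 1.72 (SE 0.31, adjusted p = 0.0033). Its call was lost when probe sets of a gene were averaged.

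Of 37 cytochrome P450 genes, 31 fell, 1 rose and 5 did not pass (median -6.56). Cyp3a11, a main drug-oxidising enzyme of mouse liver, read 13.62, 13.68 and 13.61 in hepatocytes and 2.76, 2.78 and 3.04 in MLC, where it was dim, a difference of -10.78 (SE 0.15, adjusted p = 3.5e-08). Cyp2e1, the ethanol-inducible enzyme, changed by -9.26 (SE 0.15). The P450 that rose was Cyp1b1, an enzyme common in stromal cells, at 4.14, 4.89 and 4.34 in hepatocytes and 9.29, 7.19 and 8.26 in MLC (3.79, SE 0.50, adjusted p = 0.00065). Hepatocyte replicate 1 stood apart from its own group for Cyp2c37 (4.81 against 12.25 and 12.30) and for Cyp4a14, a fatty acid hydroxylase (4.34 against 12.06 and 12.38). MLC read 2.73 to 2.87 and 3.23 to 3.46 for these genes. Their falls of -7.01 and -6.26 passed the test (adjusted p = 0.017 and 0.034) and lost the call without Hepatocyte replicate 2 or 3 or MLC replicate 1 or 2, and that of Cyp4a14 also without MLC replicate 3.

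Of 38 conjugation and transport genes of drug metabolism, 37 fell (median -5.94). Ugt2b5, a glucuronosyltransferase, changed by -9.95 (SE 0.19, adjusted p = 4.3e-08). Some glutathione transferases, which couple toxic compounds to glutathione, were bright in MLC too. The MLC mean of all 38 genes lay within 0.5 log2 units of the MSC mean. Gstp1 read 13.42, 13.46 and 13.36 in hepatocytes and 11.53, 12.16 and 11.94 in MLC, a fall of -1.54 (SE 0.19, adjusted p = 0.00054). Mgst1, the microsomal transferase, read 13.07, 13.10 and 13 in hepatocytes and 8.81, 8.98 and 10.66 in MLC (-3.57, SE 0.46). Gstm2 did not pass, at 0.65 (SE 0.27, adjusted p = 0.089).

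Bile acid, nitrogen and sugar metabolism fell by medians of over 5 log2 units, and fatty acid oxidation by less. All 23 bile acid genes fell (median -5.63), with Cyp7a1, the rate-limiting enzyme of bile acid synthesis, at -4.92 (SE 0.19, adjusted p = 9.7e-07) and Slc10a1, the uptake transporter of bile acids, at -8.18 (SE 0.23). Of 36 urea cycle and amino acid genes, 34 fell (median -5.80). Arg1, the arginase that releases urea, read 13.14, 13.15 and 13.18 in hepatocytes and 3.38, 3.64 and 3.27 in MLC, a difference of -9.73 (SE 0.16, adjusted p = 3.5e-08). Cps1, which starts the urea cycle, changed by -9.47 (SE 0.14), and Mat1a, the liver enzyme that makes S-adenosylmethionine, by -9.06 (SE 0.15). All 19 genes of glucose output and glycogen fell (median -5.27). G6pc, the last step of glucose release, changed by -8.02 (SE 0.35) and Slc2a2, the glucose transporter GLUT2, by -9.68 (SE 0.17). All 31 fatty acid oxidation genes fell as well but by less (median -3.31), and in MLC all 31 lay within 0.5 log2 units of the MSC mean. Hadh, a mitochondrial enzyme found in many cell types, was bright in MLC at 10.83 to 11 (-1.82, SE 0.14).

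Most liver transcription factors and nuclear receptors fell too. Of 32 measured, 22 fell, 2 rose and 8 did not pass (median -3.33). Hnf4a, the nuclear receptor at the centre of the hepatocyte network, read 11.19, 10.68 and 10.88 in hepatocytes and 5.03, 4.93 and 5.30 in MLC (-5.83, SE 0.19, adjusted p = 5e-07). Foxa2, a pioneer factor of liver development, changed by -3.50 (SE 0.29), Nr1h4, the bile acid receptor FXR, by -4.89 (SE 0.15), and Ppara, the fatty acid sensor, by -5.29 (SE 0.25). Cebpa fell by less and stood at a mid-range level in MLC, at 7.23, 8.53 and 7.94 against 11.07, 11.52 and 10.99 (-3.29, SE 0.33, adjusted p = 0.00018). Nr2f1, an orphan receptor known from neural and mesenchymal tissue, rose from 3.75, 4.29 and 3.96 to 7.81, 7.72 and 7.51 (3.68, SE 0.19, adjusted p = 5.5e-06). Of 27 genes of liver hormones, hormone receptors and the growth hormone axis, 22 fell (median -4.20). Ghr, the growth hormone receptor, changed by -3.44 (SE 0.29) and Igf1, its main secreted product, by -5.04 (SE 0.47), and Igf1 read 8.06, 6.28 and 7.55 in MLC.

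**Figure D2:**
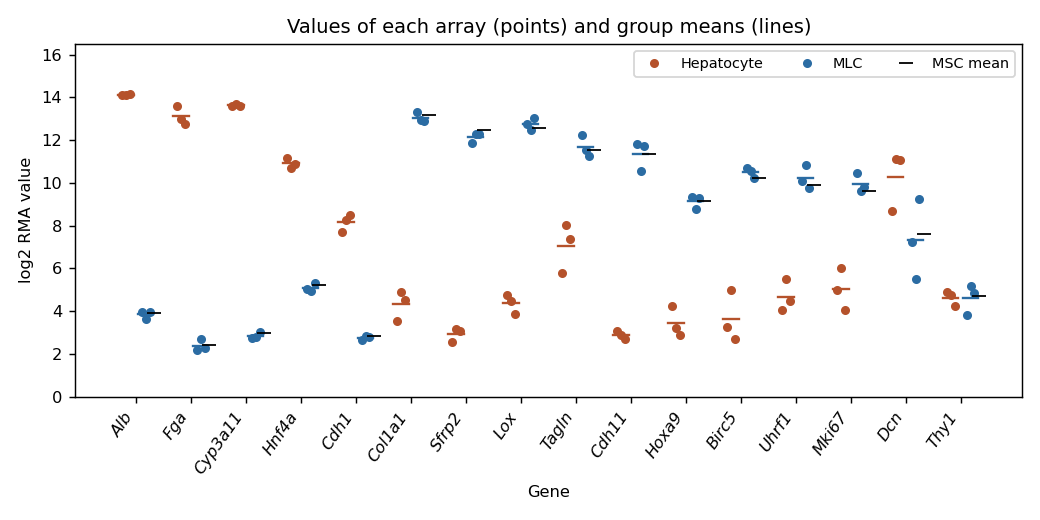
For 16 genes, points are the log2 RMA values of the 3 Hepatocyte and 3 MLC arrays, coloured lines the group means and black ticks the mean of the 3 MSC arrays. Alb, Fga and Cyp3a11 fell from over 12 to under 4, Col1a1, Sfrp2 and Lox rose from under 5 to over 11, Thy1 overlapped between groups, and in Dcn the arrays spread widely.

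Epithelial genes fell and mesenchymal genes rose, with several of the classical EMT markers outside that pattern. Of 39 epithelial and junction genes, 26 fell, 1 rose and 12 did not pass (median -1.92). Cdh1 (E-cadherin) read 7.72, 8.25 and 8.51 in hepatocytes and 2.64, 2.86 and 2.78 in MLC, where it was dim (-5.40, SE 0.22, adjusted p = 1.6e-06). Krt18, a keratin of simple epithelia, read 10.19, 11.93 and 11.32 against 3.08, 3.38 and 2.60 (-8.13, SE 0.43), and its partner Krt8 changed by -6.61 (SE 0.30). Gap junction genes went opposite ways. Gjb1, the hepatocyte connexin 32, changed by -6.76 (SE 0.16), and Gja1, the connexin 43 of fibroblasts, rose from 3.48, 6.86 and 7.65 to 11.70, 11.64 and 12.11 (5.82, SE 0.96, adjusted p = 0.002). Tjp1, the tight junction scaffold ZO-1, overlapped between groups (-0.26, SE 0.35, adjusted p = 0.58).

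Of 32 EMT and mesenchymal transcription factor and marker genes, 18 rose and none fell (median 1.74; 14 did not pass). Prrx1, a homeobox factor of mesenchyme, read 3.32, 5.29 and 4.69 in hepatocytes and 11.01, 10.66 and 11.69 in MLC (6.68, SE 0.50, adjusted p = 4e-05). Twist1 rose by 5.33 (SE 0.28) from a dim level, Snai2 by 3.26 (SE 0.36) and Snai1 by 2.88 (SE 0.41). Zeb1 rose by 1.45 (SE 0.26, adjusted p = 0.003), and this call was lost with housekeeping centring (0.89) and when probe sets were averaged. Zeb2 overlapped between groups (1.66, SE 0.68, adjusted p = 0.088). Vim, the intermediate filament vimentin, read 4.81, 10.60 and 7.23 in hepatocytes and 13.43, 13.66 and 13.35 in MLC (5.94, SE 1.25, adjusted p = 0.0064). Hepatocyte replicate 2 was already high for it, and the same array was the highest of its group for Acta2 and Cd44. Cdh2 (N-cadherin), which hepatocytes also carry, read 9.91, 10.34 and 9.73 against 10.15, 9.57 and 10.08 (-0.06, SE 0.23, adjusted p = 0.86), and Fn1 (fibronectin) was above 12 in every array (0.56, SE 0.20, adjusted p = 0.059). Cdh11, the cadherin of fibroblasts, read 3.07, 2.88 and 2.68 in hepatocytes and 11.83, 10.57 and 11.73 in MLC (8.50, SE 0.34, adjusted p = 1.3e-06).

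Most collagen genes and most genes that mature collagen rose. Of 28 collagen genes (median 2.78), 17 rose (60.7%) and 5 fell (17.9%), beside 18.4% and 12.1% of all genes. Col1a1, a chain of the main fibrillar collagen, read 3.54, 4.91 and 4.52 in hepatocytes and 13.31, 12.96 and 12.89 in MLC, with a wide gap between groups (8.73, SE 0.34, adjusted p = 1.2e-06, 425-fold). Col5a2 rose by 7.73 (SE 0.44), Col1a2 by 6.64 (SE 0.22) and Col3a1 by 5.36 (SE 0.80). Col18a1, a basement membrane collagen made by hepatocytes, went the other way, from 10.77, 10.65 and 10.86 to 5.69, 6.01 and 6.63 (-4.65, SE 0.25, adjusted p = 6.7e-06). The other falls were Col14a1 (-3.21), Col13a1 (-1.69), Col27a1 (-1.15) and Col15a1 (-1.02), named because the count is small. The call of Col27a1 was lost without Hepatocyte replicate 1, and that of Col15a1 without Hepatocyte replicate 2 or 3 or MLC replicate 2. Of 26 collagen processing and cross-linking genes, 20 rose and none fell (median 2.66). Lox, the copper enzyme that cross-links collagen and elastin, read 4.76, 4.48 and 3.88 in hepatocytes and 12.74, 12.47 and 13.03 in MLC (8.37, SE 0.26, adjusted p = 3.7e-07). Serpinh1, the collagen chaperone, rose by 5.25 (SE 0.44) and Plod2, a lysyl hydroxylase, by 5.10 (SE 0.41).

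Of 61 other matrix genes, 31 rose and 4 fell (median 1.43). The count of falls moved with single arrays, to 2 without Hepatocyte replicate 2, Hepatocyte replicate 3 or MLC replicate 2 and to 1 without MLC replicate 1, and it was 9 with housekeeping centring. Thbs1, the matrix protein that activates latent TGF-β, rose by 6.58 (SE 0.65) and Sparc by 4.81 (SE 0.37). A pair of small leucine-rich proteoglycans was among the falls. Lum (lumican) read 6.51, 7.45 and 7.83 in hepatocytes and 4.40, 4.17 and 4.70 in MLC (-2.84, SE 0.34, adjusted p = 0.00041). Dcn (decorin) read 8.67, 11.13 and 11.06 against 7.25, 5.51 and 9.26, with MLC replicate 3 inside the hepatocyte range (-2.95, SE 1.01, adjusted p = 0.048), and its call was lost without Hepatocyte replicate 2 or 3 or MLC replicate 1 or 2. Of 36 matrix proteases and inhibitors, 17 rose and none fell (median 1.49). Timp1, a metalloprotease inhibitor, rose by 6.84 (SE 0.23) and Mmp2, a gelatinase, by 5.39 (SE 0.23). Mmp13, a collagenase, read 5.19 and 4.10 in MLC replicates 1 and 2 and 10.02 in replicate 3, against 2.01 to 3.17 in hepatocytes, and did not pass (3.75, SE 1.37, adjusted p = 0.06).

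The largest rise of all belonged to Sfrp2, a secreted Wnt-binding protein of stromal cells. It read 2.57, 3.17 and 3.06 in hepatocytes, where it was dim, and 11.89, 12.30 and 12.27 in MLC (9.22, SE 0.22, adjusted p = 8.8e-08, 595-fold). S100a4, the calcium-binding protein also called fibroblast-specific protein, came next, from 3.62, 5.25 and 4.45 to 13.39, 13.05 and 13.16 (8.76, SE 0.38, adjusted p = 2.1e-06). Fgf7, a fibroblast growth factor that acts on epithelia, read 3.40 to 3.61 in hepatocytes and 10.74, 10.26 and 11.45 in MLC (7.29, SE 0.29, adjusted p = 1.4e-06).

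Genes of the contractile apparatus rose, with the hepatocyte arrays unequal among themselves. Of 39 contractile and actin-binding genes, 27 rose, 2 fell and 10 did not pass (median 2.34). The MLC mean of all 39 genes lay within 0.5 log2 units of the MSC mean. Acta2, the smooth muscle actin of myofibroblasts, read 5.23, 8.66 and 7.51 in hepatocytes and 13.48, 13.34 and 13.31 in MLC (6.24, SE 0.76, adjusted p = 0.00044). Actg2, another smooth muscle actin, rose from 4.18, 3.59 and 3.45 to 10.13, 9.12 and 8.89 (5.64, SE 0.35, adjusted p = 1.6e-05). Cnn1, the smooth muscle calponin, rose by 5.17 (SE 0.39), Cnn2, its relative in non-muscle cells, by 5.25 (SE 0.67), and Tagln, the actin-bundling transgelin, by 4.61 (SE 0.55). Myl9, a regulatory myosin light chain, read 3.61, 7.45 and 5.89 against 11.32, 10.24 and 11.01 (5.21, SE 0.87, adjusted p = 0.0021). Myh11, the smooth muscle myosin heavy chain, read 4.20, 4.28 and 4.29 in hepatocytes and 2.98, 3.04 and 3.45 in MLC, where it was dim (-1.10, SE 0.18, adjusted p = 0.0017), a call lost when probe sets were averaged. Mylk, the kinase that phosphorylates myosin light chain, changed by -1.30 (SE 0.34, adjusted p = 0.017) and lost its call without Hepatocyte replicate 3 or MLC replicate 2. Srf, the transcription factor of muscle and actin genes, stood at 0.81 (SE 0.24, adjusted p = 0.026), under the 2-fold limit.

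Serum response factor binds the CArG box, a motif known from promoters of actin and smooth muscle genes, and the letters of this box were searched on both strands of 300-base promoter windows (250 bases before to 50 after the gene start, from RefSeq, build GRCm38.p6). It was found in 7 of 33 contractile genes with a window (21.2%) and in 1.37% of 14368 windows of all genes. The 7 contractile genes were Acta1, Cnn2, Fhl1, Fhl2, Myl9, Srf and Vcl. Over all called genes the box did not go with direction, at 1.67% of windows of genes that rose and 1.82% of those that fell. It was in 0 of 23 windows of TGF-β targets and in 8.7% of 23 plasma protein windows. A match is a description of the letters and not a site shown to be bound. The windows of 6 of the 7 contractile genes are printed over 60 bases in the direction of the gene, with the match in capitals. These windows show the box beside genes whose levels are given. They lie at chr10:79988519-79988578 (+) for Cnn2, chr1:43196823-43196882 (-) for Fhl2, chrX:56779556-56779615 (+) for Fhl1, chr2:156775278-156775337 (+) for Myl9, chr17:46556210-46556269 (-) for Srf and chr14:20929148-20929207 (+) for Vcl.
Cnn2: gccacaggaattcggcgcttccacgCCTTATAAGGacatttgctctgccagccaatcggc
Fhl2: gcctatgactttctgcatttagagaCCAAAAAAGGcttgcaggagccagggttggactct
Fhl1: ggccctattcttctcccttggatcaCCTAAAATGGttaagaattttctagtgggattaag
Myl9: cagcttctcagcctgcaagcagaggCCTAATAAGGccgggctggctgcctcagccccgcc
Srf: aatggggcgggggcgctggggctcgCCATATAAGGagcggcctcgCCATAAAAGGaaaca
Vcl: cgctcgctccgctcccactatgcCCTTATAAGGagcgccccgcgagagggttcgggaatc

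The match lay nearest to the start in Cnn2, 56 bases before it, then 96 in Fhl2, 102 in Fhl1, 161 in Myl9 and 227 in Vcl, and Srf itself held a pair at 82 and 62 bases. Fhl2, a LIM-domain cofactor of serum response factor, rose from 5.03, 6.74 and 6.30 to 9.98, 9.37 and 9.31 (3.53, SE 0.43, adjusted p = 0.00046). Vcl, the adhesion protein vinculin, rose by 1.97 (SE 0.21, adjusted p = 0.00025). Fhl1, another LIM protein, rose by 1.73 (SE 0.53, adjusted p = 0.033), and this call was lost with housekeeping centring (1.17) and without any of the 3 MLC arrays in turn.

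Ligands, receptors and inhibitors of the TGF-β pathway differed between groups. Of 51 pathway genes (median 0.97), 24 rose (47.1%) and 8 fell (15.7%), beside 18.4% and 12.1% of all genes. With housekeeping centring 16 rose and 10 fell. In 50 of the 51 genes the MLC mean lay within 0.5 log2 units of the MSC mean. Among the ligands, Tgfb2 read 2.35, 4.30 and 2.94 in hepatocytes, where it was dim, and 8.26, 7.52 and 8.42 in MLC (4.87, SE 0.49, adjusted p = 0.00018), and Tgfb3 rose by 3.59 (SE 0.27). Other ligand genes of the family were 4 of the 8 falls: Bmp2 (-3.60, SE 0.48), Bmp6 (-1.28, SE 0.20) and the activin chains Inhbc (-3.83, SE 0.29) and Inhbe (-3.76, SE 0.36). Tgfb1, the ligand that had been added to the medium as human protein, rose by 1.49 (SE 0.38, adjusted p = 0.016), a call that was lost with housekeeping centring (0.93) and without MLC replicate 2. The latent TGF-β binding protein gene Ltbp1 rose by 5.14 (SE 0.30) and Ltbp2 by 4.55 (SE 0.33).

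Receptors went opposite ways. Tgfbr2, the receptor that binds the ligand, read 6.43, 8.54 and 9.0 in hepatocytes and 11.09, 10.72 and 10.82 in MLC (2.89, SE 0.60, adjusted p = 0.0063), and the co-receptor Tgfbr3 rose by 2.48 (SE 0.44). Tgfbr1, the signalling kinase, read 8.85, 9.32 and 9.32 against 7.69, 7.65 and 8.43 (-1.24, SE 0.26, adjusted p = 0.0061), a call lost when probe sets were averaged. Eng (endoglin), a co-receptor that is also on MSC marker panels, read 7.49, 8.30 and 8.28 in hepatocytes and 6.29, 6.45 and 6.45 in MLC (-1.62, SE 0.24, adjusted p = 0.0012). The inhibitors Smad7 and Smad6 rose by 1.80 (SE 0.25) and 2.23 (SE 0.31). Smad3, a signal transducer, stood at 0.79 (SE 0.22, adjusted p = 0.023), under the fold limit.

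Of 38 genes known as TGF-β targets, 25 rose, 2 fell and 11 did not pass (median 2.23). Array means over these 38 genes ran from 9.20 to 9.58 in MLC, 9.06 to 9.52 in MSC and 9.14 to 9.59 in dHD28. The labels name no TGF-β1 for MSC or dHD28, and the part of the added TGF-β1 was not tested. The targets Nox4, an NADPH oxidase (-3.19, SE 0.41, adjusted p = 0.00057), and Angptl4, a lipase inhibitor also made by liver (-2.24, SE 0.26), were the 2 that fell. Of 30 genes known as targets of the YAP and serum response factors, 18 rose and 1 fell (median 2.10). Their replicate spread was wide in hepatocytes, and in MLC the means of 28 of them lay within 0.5 log2 units of the MSC mean. Ccn2, the connective tissue growth factor, read 4.95, 9.70 and 8.09 against 12.14, 10.63 and 10.83 (3.62, SE 1.09, adjusted p = 0.03). It lost its call without Hepatocyte replicate 3 and without any of the MLC arrays in turn. Ccn1, its relative, rose by 4.01 (SE 0.75, adjusted p = 0.0037). Yap1 itself stood at 0.29 (SE 0.23, adjusted p = 0.35).

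The surface proteins used to recognise MSC went both ways. Of 32 measured, 9 rose and 6 fell (median 0.05), and with housekeeping centring 8 rose and 9 fell. The shares were 28.1% and 18.8%, beside 18.4% and 12.1% of all genes. Pdgfrb, a platelet-derived growth factor receptor of stromal cells, read 3.48, 5.32 and 6.06 in hepatocytes and 11.13, 11.08 and 11.22 in MLC (6.19, SE 0.58, adjusted p = 0.00012). Cd44, the hyaluronan receptor, read 3.87, 7.89 and 6.23 against 10.83, 10.50 and 10.18 (4.51, SE 0.88, adjusted p = 0.0046), and the adhesion molecule Vcam1 rose by 2.81 (SE 0.50). Thy1 (CD90), a defining MSC marker, read 4.92, 4.76 and 4.23 in hepatocytes and 3.83, 5.20 and 4.87 in MLC. The groups overlapped fully, the difference was 0.00 (SE 0.37, adjusted p = 1.0), and MSC stood at the same level (mean 4.72). Nt5e (CD73) was likewise low in both groups (-0.23, SE 0.16, adjusted p = 0.3). Cd34, a marker of blood progenitors and of stromal cells in several tissues, rose from 4.23, 4.28 and 3.58 to 7.99, 8.78 and 7.91 (4.19, SE 0.30, adjusted p = 2.9e-05). Ptprc (CD45), the leukocyte marker, was dim in MLC at 2.71 to 2.79 and read 4.91, 7.57 and 6.88 in the hepatocyte arrays (-3.70, SE 0.60, adjusted p = 0.0019).

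Every one of 39 cell cycle genes rose (median 4.53), a share to be read beside the 18.4% of all genes that rose. Birc5, the mitotic inhibitor survivin, read 3.25, 5.01 and 2.71 in hepatocytes and 10.72, 10.54 and 10.21 in MLC (6.83, SE 0.54, adjusted p = 5.2e-05, 114-fold). Cdk1, the kinase that starts mitosis, read 5.90, 6.27 and 5.26 against 10.91, 10.89 and 10.46 (4.94, SE 0.28, adjusted p = 8.6e-06). Mki67, the proliferation marker Ki-67, rose by 4.95 (SE 0.48), Top2a by 6.61 (SE 0.47) and Cdc20, an activator of the mitotic ubiquitin ligase, by 5.73 (SE 0.60). Hepatocyte replicate 2 was the highest of its group in all of these, and none of the hepatocyte arrays reached the MLC arrays. The mean over the 39 genes ran from 4.50 to 5.33 in the Hepatocyte arrays and from 8.89 to 9.38 in the MLC arrays.

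Of 29 DNA replication genes, 27 rose and 1 fell (median 2.78), with Mcm5, a subunit of the replicative helicase, at 5.15 (SE 0.45) and Pcna, the polymerase clamp, at 2.37 (SE 0.17). The fall was Mcm10 (-2.26, SE 0.28, adjusted p = 0.00046), a replication factor whose probe sets ranged from -2.26 to 1.26, and its call was lost when they were averaged. Among 20 G1 and arrest genes, 12 rose and none fell (median 1.55), cyclin genes and inhibitors alike: Ccnd1 by 2.63 (SE 0.38), Cdk4 by 3.46 (SE 0.22), and the inhibitor Cdkn1a (p21) by 2.69 (SE 0.68, adjusted p = 0.015), whose call was lost without Hepatocyte replicate 3 or MLC replicate 1. Cdkn2a, the p16 locus of senescence, was low in all 6 arrays, between 2.84 and 3.14.

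**Figure D3:**
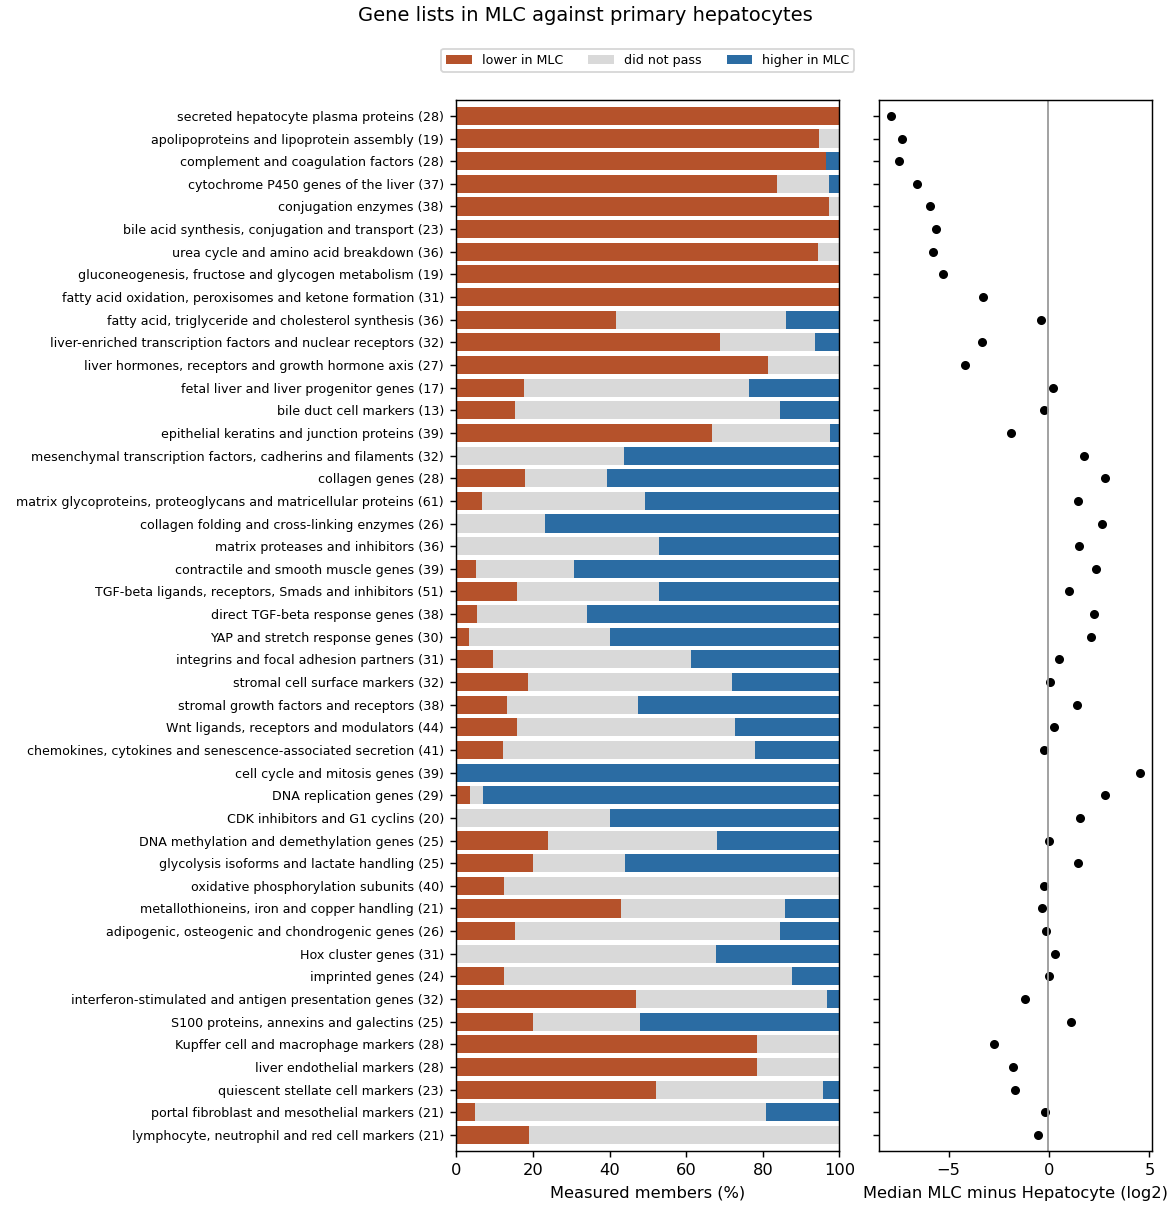
The left panel gives, for each gene list, the percent of measured members lower in MLC, not passing and higher in MLC, with the number measured in brackets; the right panel gives the list's median difference in log2 units, with a grey line at the median of all genes (-0.06). All 28 plasma protein genes and all 31 fatty acid oxidation genes were lower, and all 39 cell cycle genes were higher.

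Dnmt1, Uhrf1 and Hells, which act in copying DNA methylation at replication, rose, and the Dnmt3 and Tet genes did not pass. Of 25 DNA methylation genes (median -0.02), 8 rose (32%) and 6 fell (24%), beside 18.4% and 12.1% of all genes. With housekeeping centring 5 rose and 8 fell. Dnmt1, the maintenance methyltransferase, read 5.87, 6.62 and 6.11 in hepatocytes and 9.49, 9.94 and 8.80 in MLC (3.20, SE 0.32, adjusted p = 0.00018, 9.21-fold). Uhrf1, which guides Dnmt1 to newly copied DNA, read 4.06, 5.52 and 4.48 against 10.07, 10.82 and 9.75 (5.53, SE 0.42, adjusted p = 4.2e-05), and the helicase Hells rose by 5.11 (SE 0.60). The de novo enzymes Dnmt3a (-0.43, SE 0.20, adjusted p = 0.12) and Dnmt3b (0.12, SE 0.15, adjusted p = 0.54) did not pass. Neither did the demethylating dioxygenases Tet1 (-0.27), Tet2 (-0.60) and Tet3 (-0.46). Other rises were Gadd45b (2.10, SE 0.35), Mbd4 (1.42, SE 0.36) and Apex1 (1.28, SE 0.16), which are linked to DNA repair and demethylation, and the calls of Mbd4 and Apex1 were lost with housekeeping centring. Among the falls were Mat1a, given above, and Gnmt, which consumes methyl groups in liver (-8.17, SE 0.18). The methyl-CpG readers Zbtb33 (-1.08, adjusted p = 0.012) and Mbd1 (-1.41, adjusted p = 0.015) also fell. The call of Zbtb33 was lost without Hepatocyte replicate 2 or MLC replicate 2, and that of Mbd1 without Hepatocyte replicate 3 or MLC replicate 1. DNA methylation itself was not measured in these arrays.

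Promoters of the genes that fell held fewer CpG pairs than promoters of the genes that rose. CpG is the pair of bases at which mammalian DNA is methylated, and housekeeping and cell cycle genes are known for promoters rich in it. In 300-base RefSeq windows (GRCm38.p6; 14368 tested genes had a window, and 2648 of them had more than 1, of which the first was used), the median ratio of observed to expected CpG was 0.789 for 2692 genes that rose, 0.595 for 1761 that fell and 0.635 for 9915 that did not pass. For the 610 genes that fell at least 8-fold it was 0.353, and for the 515 that rose at least 8-fold it was 0.711. It was 0.125 for the P450 genes (29 genes), 0.163 for the bile acid genes (17 genes), 0.176 for the plasma proteins (23 genes) and 0.944 for the cell cycle genes (32 genes). Lists that mostly rose were not all rich in CpG. Beside 0.675 for all genes, the collagens stood at 0.55 and the contractile genes at 0.636. TGF-β targets (0.696), EMT genes (0.702) and replication genes (0.842) stood above it. Fatty acid oxidation genes, which fell, stood at 0.527. These medians are a description over genes, which are not replicates.

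To show this difference in letters, the 130 bases before the gene start are printed for 3 hepatocyte genes (Alb, Cyp3a11 and Fgb) and 3 mitotic genes (Birc5, Cdc20 and Cdk1), in the direction of the gene with each CpG in capitals. The windows are chr5:90460740-90460869 (+) for Alb, chr5:145879855-145879984 (-) for Cyp3a11, chr3:83049864-83049993 (-) for Fgb, chr11:117849107-117849236 (+) for Birc5, chr4:118437344-118437473 (-) for Cdc20 and chr10:69352913-69353042 (-) for Cdk1.
Alb: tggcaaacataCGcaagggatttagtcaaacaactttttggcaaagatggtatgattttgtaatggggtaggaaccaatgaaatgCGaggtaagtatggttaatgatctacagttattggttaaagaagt
Cyp3a11: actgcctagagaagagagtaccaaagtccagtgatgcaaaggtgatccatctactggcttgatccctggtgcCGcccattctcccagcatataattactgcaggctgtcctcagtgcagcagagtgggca
Fgb: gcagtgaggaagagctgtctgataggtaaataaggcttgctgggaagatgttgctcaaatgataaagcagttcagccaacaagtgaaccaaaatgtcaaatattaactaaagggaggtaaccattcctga
Birc5: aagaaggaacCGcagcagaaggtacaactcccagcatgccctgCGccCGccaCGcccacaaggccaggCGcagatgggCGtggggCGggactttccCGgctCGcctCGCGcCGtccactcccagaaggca
Cdc20: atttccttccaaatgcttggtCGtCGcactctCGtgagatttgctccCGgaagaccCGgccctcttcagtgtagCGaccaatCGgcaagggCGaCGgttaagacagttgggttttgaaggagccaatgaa
Cdk1: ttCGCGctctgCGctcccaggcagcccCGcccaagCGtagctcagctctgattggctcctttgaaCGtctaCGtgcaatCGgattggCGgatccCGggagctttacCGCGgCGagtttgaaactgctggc

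The stretch before Alb held 2 CpG pairs, that before Cyp3a11 held 1 and that before Fgb 0, against 12 before Birc5, 9 before Cdc20 and 13 before Cdk1. Other short motifs were also unevenly shared. The letters CCAAT were in 24 of 32 cell cycle windows (75%) and in 38.2% of all windows, and TATAAA was in 15 of 29 P450 windows (51.7%) and in 9.86% of all, each searched on both strands.

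**Figure D4:**
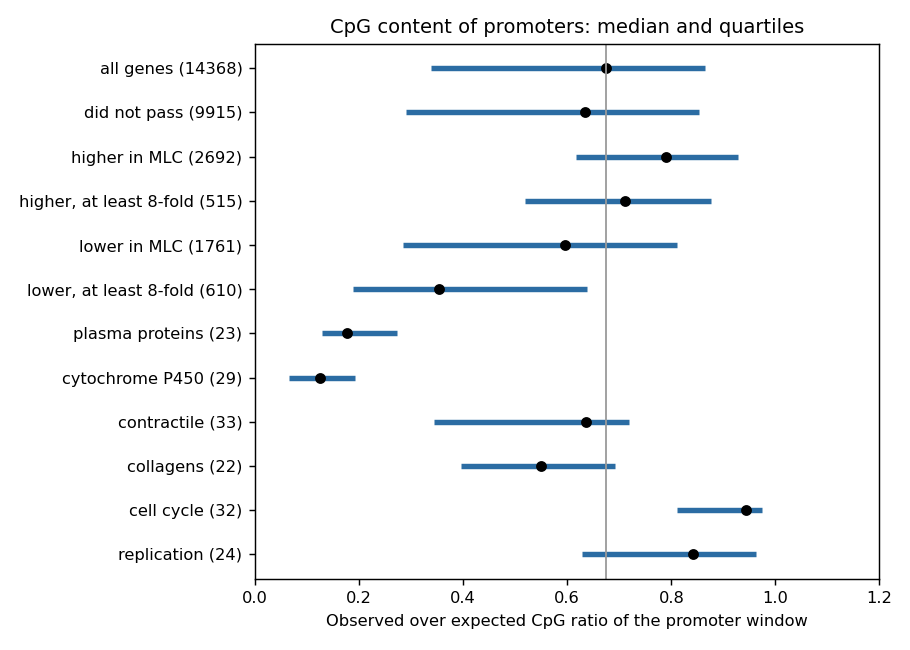
Points are the median and bars the lower and upper quartile of the observed over expected CpG ratio in the 300-base promoter window, for gene groups named on the y axis with the number of genes in brackets. Plasma protein and P450 promoters lie at 0.176 and 0.125, cell cycle promoters at 0.944 and all genes at 0.675, marked by the grey line.

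For pyruvate kinase and stearoyl-CoA desaturase the liver form of the enzyme fell and another form rose. Of 25 glycolysis genes (median 1.43), 14 rose (56%) and 5 fell (20%), beside 18.4% and 12.1% of all genes. Falls numbered 3 without MLC replicate 1 or MLC replicate 2. Pkm, the muscle and growth form of pyruvate kinase, read 5.11, 8.38 and 6.81 in hepatocytes and 12.64, 12.82 and 12.31 in MLC (5.83, SE 0.72, adjusted p = 0.00048), while Pklr, the liver form, fell (-1.39, SE 0.21, adjusted p = 0.0012). Hk1, a hexokinase of non-liver tissues, rose by 4.61 (SE 0.52). Ldha, lactate dehydrogenase A, did not pass (0.37, SE 0.15, adjusted p = 0.077). Of 36 lipid and sterol synthesis genes, 5 rose, 15 fell and 16 did not pass (median -0.38), and without Hepatocyte replicate 3 the rises numbered 9. The stearoyl-CoA desaturases also went opposite ways. Scd2 rose from 3.92, 5.82 and 5.85 to 11.95, 12.46 and 12.47 (7.09, SE 0.51, adjusted p = 3.1e-05), and Scd1, the liver form, changed by -2.05 (SE 0.47, adjusted p = 0.0095), a call lost when probe sets were averaged. Of 40 subunits of the mitochondrial respiratory chain, none rose, 5 fell and 35 did not pass (median -0.25), and with housekeeping centring 15 fell. The 12.5% that fell was near the 12.1% of all genes.

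Of 38 growth factor and receptor genes (median 1.37), 20 rose (52.6%) and 5 fell (13.2%), beside 18.4% and 12.1% of all genes. With housekeeping centring 18 rose and 9 fell. Pdgfc, a platelet-derived growth factor, rose by 3.14 (SE 0.24), and Bmp4, counted with the TGF-β pathway, by 3.05 (SE 0.21). Vegfa (0.10, SE 0.16, adjusted p = 0.65) and Hgf (0.14, SE 0.25, adjusted p = 0.68) did not pass. Of 41 chemokine and cytokine genes, 9 rose and 5 fell (median -0.24), and with housekeeping centring 6 rose and 17 fell. The shares of 22.0% and 12.2% were near the 18.4% and 12.1% of all genes. Csf1, which supports macrophages, rose from 5.92, 7.26 and 5.52 to 11.53, 10.90 and 10.52 (4.75, SE 0.46, adjusted p = 0.00015). Cxcl12, the stromal chemokine that holds blood progenitors in their niche, rose by 2.50 (SE 0.23), and the interferon-induced Cxcl9 fell (-3.59, SE 0.21). Of 32 interferon and antigen presentation genes (median -1.20), 15 fell (46.9%) and 1 rose (3.12%). Falls numbered 10 without MLC replicate 1, 12 without Hepatocyte replicate 2 or MLC replicate 2, 17 without MLC replicate 3 and 20 with housekeeping centring. There was no rise without Hepatocyte replicate 3, MLC replicate 1 or MLC replicate 3, and there were 2 without MLC replicate 2. The falls were led by Iigp1, an interferon-induced GTPase, at 11.79, 12.35 and 11.02 in hepatocytes and 4.22, 3.67 and 5.70 in MLC (-7.19, SE 0.55, adjusted p = 4.2e-05).

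Genes of the Wnt pathway, which controls zonation in liver and cell fate in stroma, also went both ways. Of 44 measured, 12 rose and 7 fell (median 0.25), and with housekeeping centring 7 rose and 10 fell. The shares were 27.3% and 15.9%, beside 18.4% and 12.1% of all genes. Beside Sfrp2, secreted modulators rose: Rspo2, an R-spondin that strengthens Wnt signals, read 3.73, 3.89 and 3.89 in hepatocytes and 9.21, 9.55 and 10.25 in MLC (5.83, SE 0.27, adjusted p = 2.8e-06), and Dkk3 rose by 5.59 (SE 0.17). Among the Frizzled receptors, Fzd2 rose from 4.47, 5.12 and 5.41 to 9.73, 10.09 and 9.08 (4.63, SE 0.33, adjusted p = 3e-05), and Fzd4 changed by -2.67 (SE 0.20, adjusted p = 4.1e-05). Notum, a Wnt-inactivating enzyme that is itself a Wnt target, fell (-1.69, SE 0.25), and Axin2, a general Wnt target, overlapped between groups (0.12, SE 0.25, adjusted p = 0.73).

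Cell surface receptors for matrix and small calcium-binding proteins of stromal cells followed. Of 31 integrin and matrix receptor genes (median 0.47), 12 rose (38.7%) and 3 fell (9.68%), beside 18.4% and 12.1% of all genes. Falls numbered 5 without Hepatocyte replicate 1 and 7 with housekeeping centring. Itga5, the fibronectin receptor subunit, rose by 2.66 (SE 0.33) and Ddr2, a receptor for fibrillar collagen, by 2.78 (SE 0.24). Cd36, a fatty acid and thrombospondin receptor, read 6.75, 8.41 and 8.64 in hepatocytes and 2.05 to 2.10 in MLC, where it was dim (-5.86, SE 0.46, adjusted p = 5.1e-05). Of 25 S100, annexin and galectin genes (median 1.09), 13 rose (52%) and 5 fell (20%), and with housekeeping centring 9 rose and 7 fell. Lgals1 (galectin-1) read 7.72, 11.30 and 10.31 in hepatocytes and 13.81, 13.79 and 13.80 in MLC (4.02, SE 0.80, adjusted p = 0.005). Anxa1, an anti-inflammatory annexin, read 4.39, 8.11 and 6.93 against 11.95, 11.77 and 12.41 (5.57, SE 0.83, adjusted p = 0.0012). In both genes Hepatocyte replicate 1 was the lowest array and replicate 2 the highest of its group.

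Of 13 bile duct markers, 2 rose, 2 fell and 9 did not pass, shares of 15.4% each beside 18.4% and 12.1% of all genes, and no fall was left without Hepatocyte replicate 2, Hepatocyte replicate 3, MLC replicate 1 or MLC replicate 2. Of 17 liver progenitor genes, 4 rose and 3 fell (23.5% and 17.6%, median 0.20), not far from the shares of all genes. Falls numbered 1 without Hepatocyte replicate 2. Cd24a read 3.37, 8.79 and 6.04 in hepatocytes and 11.21, 11.19 and 11.27 in MLC (5.16, SE 1.16, adjusted p = 0.0088). Sox9, a factor of bile duct and of skeletal progenitor cells, rose by 1.96 (SE 0.22, adjusted p = 0.00027). Epcam, the epithelial adhesion marker of duct cells, overlapped between groups (0.20, SE 0.15, adjusted p = 0.33), and Krt19, the duct keratin, did not pass (1.99, SE 0.70, adjusted p = 0.052). Afp, the fetal counterpart of albumin, fell from 5.03, 5.43 and 4.97 to 4.08, 3.86 and 4.15 (-1.11, SE 0.18, adjusted p = 0.0021), a call lost without Hepatocyte replicate 2. Of 24 imprinted genes, 3 rose and 3 fell (12.5% each, beside 18.4% and 12.1% of all genes), and with housekeeping centring 3 rose and 7 fell. Ndn (4.94, SE 0.31) and Grb10 (4.43, SE 0.28), both growth regulators, were among the rises. Of 26 genes of fat and bone lineages, 4 rose and 4 fell (15.4% each), which is near the share of all genes, and with housekeeping centring 2 rose and 9 fell. Pparg, the master factor of fat cells, overlapped (-0.20, SE 0.33, adjusted p = 0.65), and Sp7, the bone factor osterix, stayed under the fold limit (0.93, SE 0.18, adjusted p = 0.0046).

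Positional genes of the Hox clusters, which keep a record of where along the body a cell arose, rose at certain loci. Of 31 Hox genes, 10 rose and none fell (median 0.28), a share of 32.3% beside the 18.4% of all genes that rose. Hoxa9 read 4.23, 3.23 and 2.89 in hepatocytes, where it was dim, and 9.34, 8.78 and 9.29 in MLC (5.68, SE 0.35, adjusted p = 1.5e-05), close to the MSC mean of 9.15. Hoxc10 rose from 4.40, 3.17 and 2.88 to 9.71, 9.66 and 9.57 (6.16, SE 0.37, adjusted p = 1.3e-05), with MSC at 9.74.

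Markers of the other cells of liver were present in the hepatocyte arrays and low in MLC. Of 28 Kupffer cell markers 22 fell (median -2.76), of 28 endothelial markers 22 fell (median -1.78), and of 23 markers of quiescent stellate cells 12 fell and 1 rose (median -1.69). Their mean over the list ran from 6.03 to 7.60, 5.92 to 7.01 and 5.82 to 7.12 in the Hepatocyte arrays. In the MLC arrays it ran from 4.22 to 4.45, 4.57 to 4.72 and 4.72 to 5.03. In the same order, 78.6%, 78.6% and 52.2% of the markers fell, beside 12.1% of all genes. With each array left out in turn, falls numbered 18 to 22, 17 to 24 and 10 to 14. Hepatocyte replicate 1 was the lowest of its group for the Kupffer cell gene Vsig4 (7.86, 9.14 and 9.67), the sinusoidal endothelial gene Clec4g (8.33, 9.95 and 10.57) and the stellate cell gene Reln (7.52, 9.15 and 9.80). In MLC these genes read between 3.43 and 4.43. The changes were -5.27 (SE 0.43), -5.25 (SE 0.51) and -4.89 (SE 0.52). Lrat, which stores retinol in stellate cells, read 3.39, 7.97 and 7.04 in hepatocytes and 2.24 to 2.49 in MLC (-3.77, SE 1.04, adjusted p = 0.021), and its call was lost without Hepatocyte replicate 2 or 3 or MLC replicate 1 or 2. The part of these cell types in the difference between groups was not tested. Of 21 portal fibroblast and mesothelial markers, 4 rose and 1 fell (median -0.20), and with housekeeping centring 4 rose and 8 fell. The 19% that rose was near the 18.4% of all genes. There was no fall without Hepatocyte replicate 2, Hepatocyte replicate 3 or MLC replicate 2, and there were 2 without Hepatocyte replicate 1 or MLC replicate 3.

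Fits within either spike-in class held 3 arrays and a single array in 1 of the groups, whose spread is assumed to be like that of the other group: MLC replicate 3 against Hepatocyte replicates 2 and 3 for dim controls, and Hepatocyte replicate 1 against MLC replicates 1 and 2 for bright ones. With the arrays of dim controls alone, Vim, Cd44, Cd24a, Ccn1, Ccn2, Ccnd1, Cdkn1a, Fhl1, Myh11, Mylk, Tgfbr1, Mbd1, Zbtb33 and Afp lost their call. With the arrays of bright controls alone, Cebpa, Cyp1b1, Gstp1, Masp1, Zeb1, Tgfb1, Nox4, Dcn, Scd1, Mylk, Mbd1 and Zbtb33 did. Both lists are partial, since other genes also lost their call in these fits. Tested against a fold of 1.5, Cyp4a14, Dcn, Fhl1, Mylk, Tgfb1, Tgfbr1, Ccn2, Mbd1 and Zbtb33 did not pass. Averaging probe sets also ended the calls of Dcn, Fhl1, Tgfb1 and Zbtb33, a further quantile normalization those of Fhl1 and Myh11, the fit on all 15 arrays that of Mylk, median centring that of Dcn and array weights that of Zbtb33. Blocking on the replicate number ended those of Ccn2 and Fhl1.

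MLC stood next to MSC in nearly every gene. The MLC mean lay within 0.5 log2 units of the MSC mean in 18027 of 18193 genes (99.1%) and in 5477 of the 5560 genes that differed from hepatocytes (98.5%). Of the 257 hepatocyte function genes, 254 were within 0.5 units of MSC, and none of them was above MSC by at least 1 unit. MLC exceeded MSC by at least 1 unit in 3 genes, Nrn1, Plscr2 and Tmem176a, and was below it by at least 1 unit in 6, Aspn, Ccn3, Cd53, F13a1, Gadd45a and Itga10, which are named because the counts are small. Nrn1, a surface-anchored neurite growth factor, was bright in hepatocytes (11.35, 11.41 and 11.17) and read 8.02, 6.57 and 6.46 in MLC beside an MSC mean of 5.99. Tmem176a read 10.51 in MLC replicate 3, within the hepatocyte range of 10.43 to 11.15, and 8.47 and 7.62 in the others, beside an MSC mean of 7.75. The Y-linked gene Eif2s3y was present in both groups, at 8.39, 9.30 and 9.11 in hepatocytes, 8.39, 7.45 and 8.49 in MLC and a mean of 8.0 in MSC. The group means were set side by side, and no test was made of the distance from MSC.

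The series holds a second move into MSC medium, from HD28 to dHD28, which started from MSC-derived cells and for which the labels name no TGF-β1. The difference between the changes, (MLC minus Hepatocyte) minus (dHD28 minus HD28), was fitted on those 12 arrays and shares no array between its arms. It passed in 4307 of 18193 genes (23.7%), of which 2524 (13.9%) were positive and 1783 (9.80%) negative, at an adjusted p under 0.05 and a difference of at least 1 log2 unit. The end points were close: array means over the plasma protein genes were 4.29 to 4.85 in MLC and 4.35 to 4.55 in dHD28. Where the end points are level, the difference between the changes equals HD28 minus Hepatocyte, a difference between the starting cells. HD28 replicate 3 carried strong signal of hepatocyte genes, unlike the other HD28 arrays: the mean over the 28 plasma protein genes was 4.84 in the lowest and 10.4 in the highest HD28 array. Values of hepatocyte genes are therefore given with and without it.

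Of the 5 genes with the largest positive difference between the moves, 4 rose from hepatocyte to MLC and had lower means in dHD28 than in HD28. Cdh11 changed by 8.50 in the first and by -0.82 in the second, a difference of 9.32 (SE 0.58, adjusted p = 3e-06). For Lox the changes were 8.37 and -0.70 (difference 9.07, SE 0.37, adjusted p = 2.2e-07), for Col1a1 8.73 and -0.27 (9.0, SE 0.41, adjusted p = 4e-07), and for Dclk1, a microtubule-linked kinase, 7.10 and -1.62 (8.73, SE 0.34, adjusted p = 2.2e-07). Mmp13 had the largest difference, 9.52 (SE 1.89, adjusted p = 0.0032); its rise from hepatocyte to MLC did not pass, and dHD28 minus HD28 was -5.77. Without HD28 replicate 3 these differences were 9.27, 9.09, 9.11, 8.75 and 9.47 in the same order.

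With all 12 arrays, the 5 largest negative differences that passed belonged to hepatocyte genes, and each was larger in size without HD28 replicate 3. Cyp3a25, a drug-oxidising P450, differed between moves by -8.10 (SE 2.17, adjusted p = 0.016) and by -10.65 without that array. For Fga the difference was -7.92 (SE 2.60, adjusted p = 0.041) and -10.96 without it, and for Mug1, a plasma protease inhibitor, -7.71 (SE 2.32, adjusted p = 0.028) and -10.43. Ces1f, a liver carboxylesterase, stood at -7.54 (SE 1.93, adjusted p = 0.013) and -9.81, and Ugt2b5 at -7.48 (SE 2.28, adjusted p = 0.03) and -10.16. Alb did not pass with all arrays (-6.97, SE 2.90, adjusted p = 0.099) and passed without HD28 replicate 3 (-10.38, adjusted p = 9.8e-10). Without that array its difference was larger in size than those of Ces1f and Ugt2b5, so the ranking depended on the array. Of the 39 cell cycle genes, 28 had a positive difference that passed and none a negative one (median 2.25); their mean was 6.63 to 7.23 in the HD28 arrays and 8.89 to 9.32 in the dHD28 arrays, beside 4.50 to 5.33 in Hepatocyte and 8.89 to 9.38 in MLC.

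**Figure D5:**
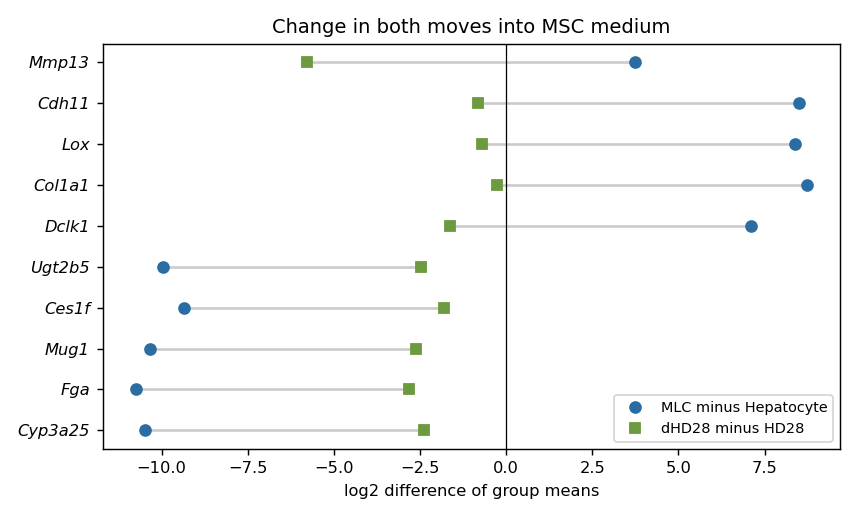
For 10 genes, the 5 with the largest positive and the 5 with the largest negative difference between the moves, circles give MLC minus Hepatocyte and squares dHD28 minus HD28, in log2 units of group means, joined by a grey line. Cdh11, Lox, Col1a1 and Dclk1 rose by 7.10 to 8.73 in the first move and lay between -1.62 and -0.27 in the second.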

How the data were processed

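Total RNA of each sample (5 µg, per the labels' protocols) was hybridised to Affymetrix mouse arrays. The deposited values are log2 expression values made by the authors with RMA, per the submitters' processing notes; the log base was taken from the range of 1.32 to 14.15 and not stated. Of 45101 probe sets, 34945 had 1 symbol in the platform annotation, 932 had several and 9160 none. Columns of other samples numbered 0. Differences were fitted with limma 3.58.1 (lmFit and eBayes, R 4.3.3) on the 6 arrays, the difference between the moves on 12 arrays, with Benjamini-Hochberg adjustment over 18193 genes. The scripts were tested on simulated data.

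The members and gene lists were chosen with earlier results of these data known. Genes were drawn from sets made by rule. The sets held the 15 largest changes in each direction (5 for the difference between the moves) and the up to 8 largest called members of a list in each direction. They also held up to 5 called members against a list's majority. All DNA methylation, liver and EMT factor and TGF-β receptor genes, and the brightest cell markers, were in the sets as well. Only some genes of these sets are described, so those shown are a selection. Other members (for example Thy1, Nt5e, Cdk1, Mki67, Cyp2c37, Cyp7a1, Scd1, Igf1, Eif2s3y and Nrn1) and the printed promoter windows were chosen after their values were seen. Promoters are RefSeq windows of GRCm38.p6. Deviations from the group mean were correlated between arrays of the same replicate number. These correlations were -0.03, -0.21 and 0.12 for Hepatocyte and MLC, and 0.32, 0.28 and 0.12 for HD28 and dHD28. Same-number HD28 and dHD28 arrays also shared the spike-in class, and replicate 2 of Hepatocyte and of MLC differed in it. The correlations therefore cannot show whether arrays were pairs. The labels name no pairs, and the main fits used none. Arrays have no read depth: their number limits the precision, with a median residual SD of 0.25 log2 units. Alternatives were other scalings, probe-set rules, blocks, filters and leaving out each array.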

Additional observations from a re-analysis of the deposited data

Results flagged for a closer look

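The difference between the 2 moves into MSC medium, tested by the interaction in limma, passed for 2524 genes in the positive and 1783 in the negative direction. It also holds the difference between the starting cells, HD28 and hepatocytes. Among the genes with the largest values were Mmp13 (9.52), Cdh11 (9.32), Lox (9.07), Col1a1 (9.0) and Dclk1 (8.73), whose change from hepatocyte to MLC lay above that from HD28 to dHD28. With all arrays, the largest negative values that passed were those of Cyp3a25 (-8.10), Fga (-7.92), Mug1 (-7.71), Ces1f (-7.54) and Ugt2b5 (-7.48). All 5 were larger in size without HD28 replicate 3, and the ranking was then different, with Alb beyond Ces1f and Ugt2b5. Groups of 3 arrays were not tested for single arrays that stand apart.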

How the results depend on the processing

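Of 540 genes (members of the lists and the largest changes), 478 were called and 365 of these kept direction and call under every alternative run. Centring on housekeeping genes gave 2060 higher and 4616 lower genes, and 3878 negative differences between the moves. With no fold limit 3471 genes were lower, and testing against a fold of 1.5 left 1599 positive and 1120 negative differences. Leaving out each array in turn gave 3219 to 3463 genes higher and 2029 to 2310 lower, and 2288 to 2594 positive and 1532 to 1899 negative differences. With the replicate block, 3344 genes were higher and 2210 lower, and 2622 differences were positive and 1882 negative; the counts moved by less than 1.5 times. The gap in median promoter CpG ratio between risen and fallen genes (0.194) was 0.149 without dim genes and 8 as CpG pairs per window. Without cross-hybridising probe sets, H2-D1 went from -2.72 to 0.14 and Ighm from 0.22 to -3.15, so neither is described. Arrays give no depth, and 545 changed genes were dim on their lower side, which limits their fold sizes.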
